A study of Mus musculus with 9 samples.

Results

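Golgins are long coiled-coil proteins of the Golgi apparatus. The genes described here encode 6 of them (Golga1, Golga4, Gcc2, Golga2, Golgb1 and Trip11), the anchoring protein Akap9 and its centrosomal relative pericentrin (Pcnt), and the phosphatidylinositol 4-kinases Pi4ka and Pi4kb. They were taken as every probe set annotated to exactly 1 of these 10 symbols, which gave 29 of the 45101 probe sets on the array and 10 of the 18193 genes it names. The set was selected on earlier results of these data, in which single probe sets of Pi4kb, Akap9 and Golga4 stood among the largest falls, so the difference between genotypes in these genes is given as a description, without p-values. Choroid plexus was cut out by laser from frozen nervous tissue. The mice were male C57BL animals of 78 weeks, kept on normal chow, and each sample was read on 1 array. The 4 apoE-/- samples lack apolipoprotein E, a lipid carrier. The 5 wild-type samples share their strain, sex, age and diet. The labels give no number of animals behind a sample, nor say whether samples came from separate animals, so errors measure the spread between arrays, which may be partly technical.

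Golgins are anchored to Golgi membranes at 1 end and reach into the cytosol, where they catch transport vesicles and bind small GTPases. Golga1 and Golga4, at the trans-Golgi, have a GRIP domain and are recruited by the GTPase Arl1, while golgins at the cis-Golgi receive vesicles from the endoplasmic reticulum. Akap9 holds protein kinase A and the gamma-tubulin complex at the Golgi and the centrosome, which makes the Golgi a site where microtubules start. Pi4kb makes phosphatidylinositol 4-phosphate (PI4P), the lipid that marks Golgi membranes and recruits lipid transfer proteins. The choroid plexus epithelium is a secretory, multiciliated layer, and its cells carry an extensive Golgi.

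The check of the labels was Apoe itself, read by 1 probe set. Its signal was 12.2 to 53.8 on the 4 apoE-/- arrays, none of them called present, against 18252 to 23953.1 on the 5 wild-type arrays, all called present. The apoE-/- level was lower by an estimated factor of 956 (limma, adjusted p = 5.25e-11), or 818 to 1260 with an array left out. Present calls covered 44.0% to 49.1% of an array's probe sets. Of the choroid plexus epithelium markers 8 of 10 were tested, none passed, and their summed normalised signal was 143898 to 152708 in apoE-/- and 141532 to 152282 in wild-type. Macrophage markers read above wild-type in 6 of 6 tested genes, with a median log2 difference of 0.58. By limma 4 had an unadjusted p under 0.05 and 2 passed the threshold. They had a summed signal of 9735 to 14906 in apoE-/- and 7454 to 11297 in wild-type, and Cx3cr1 was called present on no array. Neuron markers summed to 1002 to 1229 in apoE-/- and 1105 to 1940 in wild-type, with 0 of 7 tested genes past the threshold and Nefm called present on no array. Stroma markers were called higher for 1 of 8 tested genes, with 2 at an unadjusted p under 0.05 by limma and 4 above and 4 below wild-type. Their summed signal was 18346 to 24905 in apoE-/- and 18143 to 20246 in wild-type. Ependyma markers read above wild-type in 4 of 4 tested genes, with a median log2 difference of 0.49, 3 at an unadjusted p under 0.05 and 0 past the threshold by limma, and they summed to 7771 to 9158 in apoE-/- and 5591 to 8646 in wild-type. Oligodendrocyte markers, with 0 of 2 tested genes past the threshold and both below wild-type, summed to 1967 to 3592 in apoE-/- and 2029 to 8189 in wild-type. Astrocyte markers, with 4 of 4 tested genes above wild-type and 0 at an unadjusted p under 0.05 by limma, summed to 3254 to 4103 in apoE-/- and 2784 to 3906 in wild-type. Endothelium markers, 3 above and 2 below wild-type with 2 at an unadjusted p under 0.05, summed to 3831 to 4342 in apoE-/- and 4079 to 4751 in wild-type. Blood markers, with 1 tested, summed to 50.9 to 115 in apoE-/- and 62.8 to 269 in wild-type, and none of these 3 lists had a gene past the threshold. The ratio of 3′ to 5′ control signal, a gauge of RNA integrity, was 2.72 to 3.31 for beta-actin in apoE-/- and 2.29 to 3.67 in wild-type, and 1.02 to 1.09 for Gapdh in apoE-/- and 0.872 to 1.33 in wild-type. The part of these measures in the results below was not tested.

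Of the 29 probe sets 15 were tested, from 9 of the 10 genes, because a test required a present call on at least 4 of the 9 arrays. The other 14 failed that filter, and 8 of the 29 were called present on no array. In the limma fit over all 21478 tested probe sets, 3 of the 15 were called lower in apoE-/- and 0 higher (adjusted p under 0.05), where over the whole array 1.92% were called lower and 0.670% higher. At an unadjusted p under 0.05, 3 of the 15 were lower and 1 higher, where over the whole array 9.30% were lower and 7.23% higher. The contrast had a part in choosing these genes, so nothing is read from these shares. The 3 were 1 probe set each of Golga4, Akap9 and Pi4kb, and each met the filter only through wild-type arrays. Passing in this way leans towards a fall without requiring one. Of 172 tested probe sets present on 0 apoE-/- and at least 4 wild-type arrays, 42 were called lower. The remaining 12 tested probe sets differed by less than 0.25 on the log2 scale in either direction. Over all tested probe sets the median log2 difference was 0.0014. Fewer cells of a type and less RNA per cell cannot be told apart in captured tissue.

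**Figure D1:**
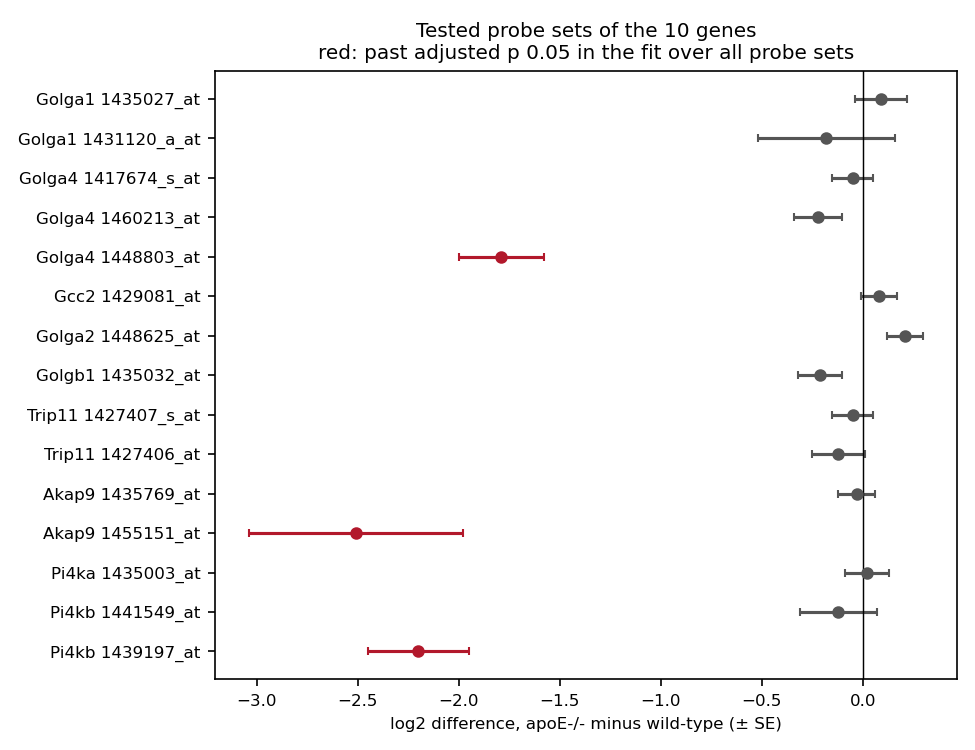
Log2 difference (apoE-/- minus wild-type, horizontal axis) with its standard error for the 15 tested probe sets, named by gene and probe set down the page. Red points are the 3 called lower, at -1.79 (Golga4), -2.51 (Akap9) and -2.20 (Pi4kb), and the grey points lie between -0.22 and 0.21.

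Golga4 encodes golgin-245, a GRIP golgin of the trans-Golgi, and was read by 3 probe sets, all annotated to the same RefSeq messenger RNA. The probe set called lower, 1448803_at, had a signal of 147.7, 99.1, 89.8 and 74.2 in apoE-/- replicates 1 to 4, against 279.7, 321.1, 403.8, 339.7 and 321.6 in wild-type replicates 1 to 5. Its 4 apoE-/- arrays were all below the 5 wild-type arrays, with present calls on 0 of the apoE-/- and 5 of the wild-type arrays and a marginal call on apoE-/- replicate 1. The log2 difference was -1.79 ± 0.21 (SE), and the estimate was 3.47-fold lower in apoE-/- by this probe set. For a bound, each apoE-/- value below its array's dimmest signal called present in any probe set was lifted to that signal. The log2 means of the groups were then compared. That floor was 10.7 to 20 on the apoE-/- arrays and is not the detection limit of a given probe set. No value of this probe set needed lifting, so it has only the estimate and no separate bound. With an array left out the estimate ran from 3.2 to 4.01-fold. Over the other settings the log2 difference ran from -1.81 to -1.38.

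The other probe sets of Golga4 differed by less than 0.25. Probe set 1417674_s_at had a signal of 4370.3, 4474.7, 3660 and 4246.1 in apoE-/- and 4469.6, 5109.4, 3520.4, 4658.6 and 4407.3 in wild-type, a log2 difference of -0.05 ± 0.10 (SE). Probe set 1460213_at had 937.8, 795.1, 806.2 and 1025.2 in apoE-/- and 972.6, 1146.9, 1105.7, 900.8 and 1058.6 in wild-type, a log2 difference of -0.22 ± 0.12 (SE). In both the groups overlapped, and all 9 arrays were called present. The suffix _s_at marks probes that match more than 1 transcript.

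Akap9, also named AKAP450, was read by 6 probe sets, of which 2 were tested. Probe set 1455151_at was called lower, with a signal of 39.3, 52.5, 12.3 and 6.3 in apoE-/- replicates 1 to 4, against 116.4, 102, 135.1, 126.2 and 82.5 in wild-type replicates 1 to 5. The groups did not overlap, with 0 apoE-/- and 4 wild-type arrays called present, and apoE-/- replicates 3 and 4 were far below replicates 1 and 2. The log2 difference was -2.51 ± 0.53 (SE), and the bound was 4.42-fold lower in apoE-/-, against an estimate of 5.68-fold without the lift. The call was lost without apoE-/- replicate 3 (-2.26), without wild-type replicate 3 (-2.46) and without wild-type replicate 4 (-2.48), and the log2 difference was -1.12, still called, with an offset of 50 added to the signal.

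The brightest probe set of Akap9, 1435769_at, was called present on all 9 arrays. Its signal was 3340, 3032.5, 3233.7 and 3373.6 in apoE-/- and 3734.5, 3599.7, 3040.5, 3564.5 and 2976.1 in wild-type, a log2 difference of -0.03 ± 0.09 (SE) with overlapping groups. Of the 4 untested probe sets, 1447913_x_at also read apart without overlap, at 33.8, 27.3, 20.1 and 35.6 in apoE-/- and 71.8, 59.3, 90.8, 68.9 and 40 in wild-type, with 0 apoE-/- and 2 wild-type arrays called present. The suffix _x_at marks probes that may cross-hybridise with other transcripts. Probe set 1437082_at overlapped, at 28.6 to 68.4 in apoE-/- and 57.2 to 83.3 in wild-type. Probe sets 1446237_at (121.8 to 173 in apoE-/-, 61.5 to 167.5 in wild-type) and 1447912_x_at (15.4 to 39.9 in apoE-/-, 18.2 to 132.1 in wild-type) overlapped as well, and in the second the highest wild-type value came from replicate 1 alone, the others being at most 24.5.

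Pi4kb was read by 2 probe sets, both annotated to expressed sequence tags. Probe set 1439197_at was called lower, with a signal of 105.1, 49.3, 80.5 and 70.7 in apoE-/- replicates 1 to 4, against 392.5, 374.8, 275.2, 377.5 and 241 in wild-type replicates 1 to 5. The groups did not overlap, and 0 apoE-/- and 4 wild-type arrays were called present, wild-type replicate 3 being called absent at 275.2. The log2 difference was -2.20 ± 0.25 (SE), and the estimate was 4.61-fold lower in apoE-/-. No value needed lifting, so here too there is no separate bound. With an array left out the estimate ran from 3.94 to 5.27-fold. Over the other settings the log2 difference ran from -2.31 to -1.63. Its other probe set, 1441549_at, was called present on all 9 arrays at 144.3, 205.6, 232.4 and 177.7 in apoE-/- and 238.5, 241.6, 139.7, 189.9 and 193.5 in wild-type. There the groups overlapped and the log2 difference was -0.12 ± 0.19 (SE).

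**Figure D2:**
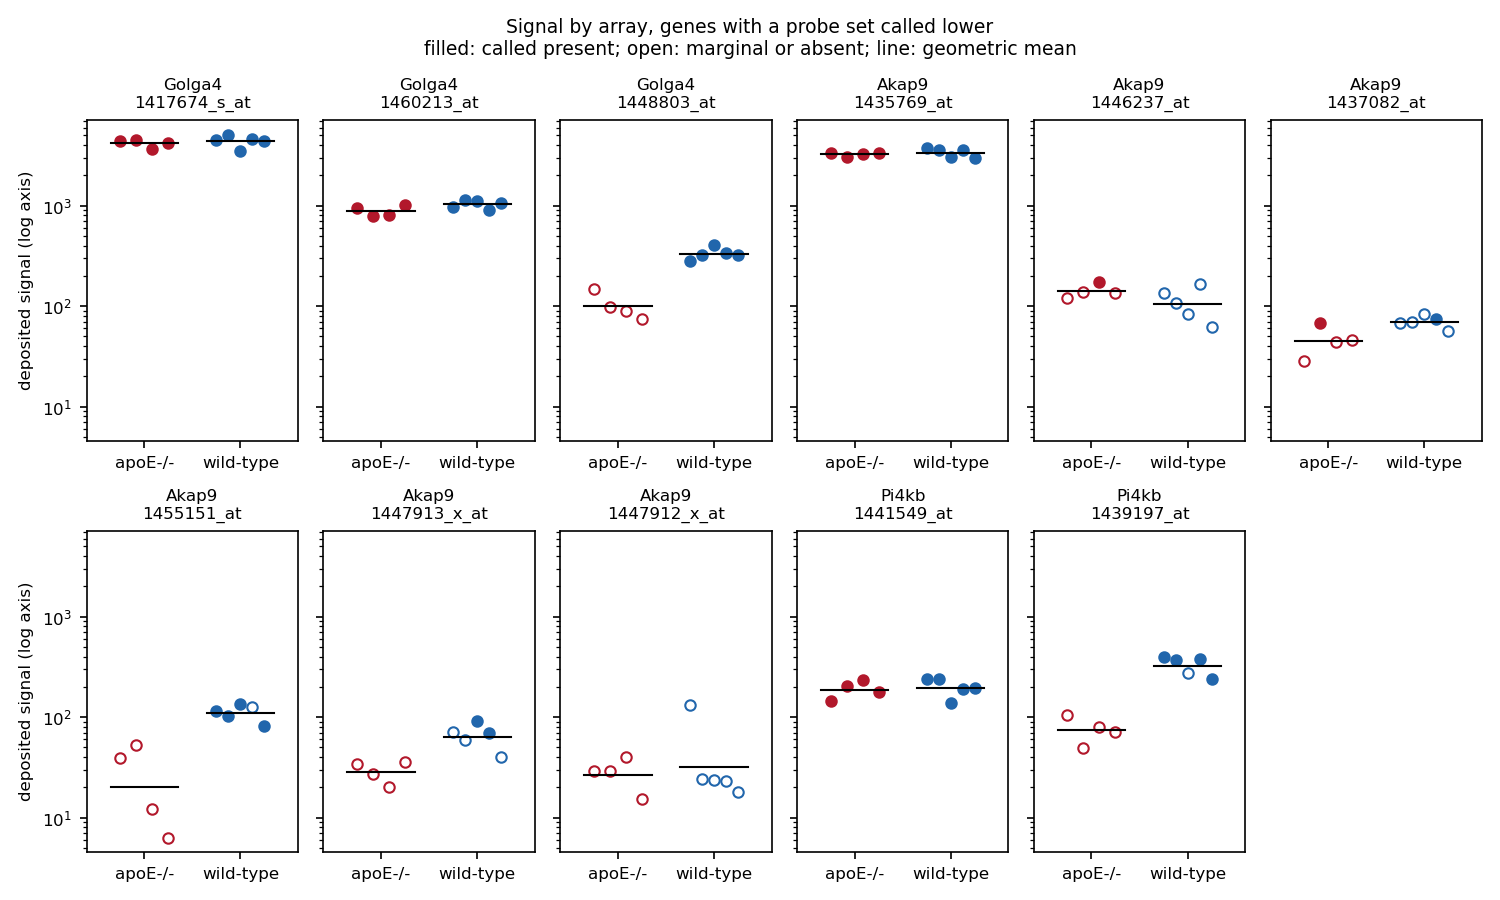
Deposited signal (log axis) of each array for every probe set of Golga4, Akap9 and Pi4kb, apoE-/- left (red, 4 arrays) and wild-type right (blue, 5 arrays). Filled points were called present and lines are geometric means, and 1448803_at, 1455151_at, 1447913_x_at and 1439197_at show no overlap, while the probe sets called present on all 9 arrays do.

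To compare probe sets of the same gene on the same array, the log2 gap between the tested probe set with the lowest and that with the highest difference was taken and set to a wild-type mean of 0. For Golga4 the gap was -1.74 ± 0.44 in apoE-/- (SD, n = 4), between -2.10 and -1.11, against -0.28 to 0.61 in wild-type. For Akap9 it was -2.47 ± 1.49 in apoE-/- (SD, n = 4), between -4.20 and -1.17, against -0.22 to 0.38 in wild-type. For Pi4kb it was -2.09 ± 0.71 in apoE-/- (SD, n = 4), between -2.85 and -1.15, against -0.42 to 0.28 in wild-type. In these 3 genes every apoE-/- array lay below every wild-type array. The pairs were picked by their difference between genotypes, in genes chosen for that fall, so this separation is a description only. In Golga1 the gap was -0.88 to 0.49 in apoE-/- and -0.93 to 0.75 in wild-type, and in Trip11 -0.16 to 0.01 in apoE-/- and -0.27 to 0.57 in wild-type. Their groups overlapped. Where on the transcripts the probes lie was not analysed here.

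**Figure D3:**
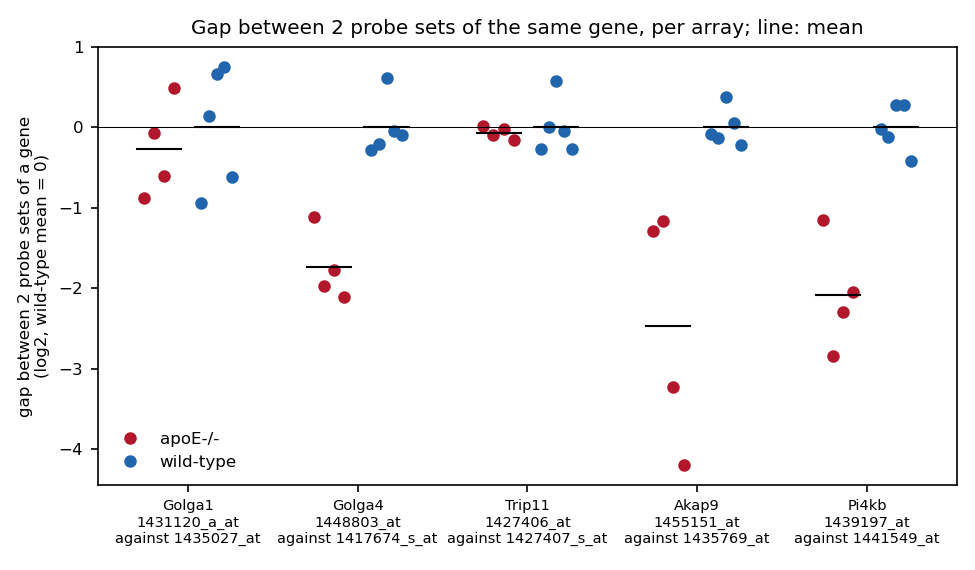
Log2 gap between the named pair of probe sets of a gene on each array, with the wild-type mean set to 0, for the 5 genes with at least 2 tested probe sets. Lines are group means, and the 4 apoE-/- points (red) lie below the 5 wild-type points (blue) for Golga4, Akap9 and Pi4kb and among them for Golga1 and Trip11.

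Over the array, a gene's probe set was often called lower without a second one. Gaps were not taken in those genes, and missing the threshold is not by itself a disagreement. Of 4540 genes with at least 2 tested probe sets, 269 had at least 1 called lower in apoE-/-, and in 34 of them (12.6%) a second was called lower too. The called one was the gene's brightest in 56 (20.8%). In 264 of the genes some probe set was not called lower, and the median over genes of their median log2 difference was -0.08. These probe sets were picked as not called, so a value near that of all probe sets was partly fixed by the choice. Golga4, Akap9 and Pi4kb were neither among the 34 nor among the 56. Among the 50 such genes with a probe set called higher, 7 (14.0%) had a second one and in 25 it was the brightest. Among all tested probe sets, 172 were called present on 0 apoE-/- and at least 4 wild-type arrays, 42 of them called lower, and the 3 described here belong to them. With the tested probe sets ranked by mean signal over both groups and cut into 4 equal bins, the 3 lay in the dimmest bin. That bin holds 5 of the 15 tested here, and 1.77% of all its probe sets were called lower, against 2.46%, 1.94% and 1.51% in the brighter bins. The mean includes the apoE-/- arrays, so the fall itself lowered the rank of the 3. In wild-type alone their mean signal was 335 (Golga4), 113 (Akap9) and 331 (Pi4kb), and a rank by wild-type signal was not taken.

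The other GRIP golgins were read by probe sets that overlapped between groups. Golga1, golgin-97 of the trans-Golgi, had a signal of 908.5, 706.3, 932.9 and 863.3 in apoE-/- and 827.9, 861.4, 690.5, 675 and 933.8 in wild-type by its brightest probe set 1435027_at, a log2 difference of 0.09 ± 0.13 (SE). Its second tested probe set 1431120_a_at ran from 44.7 to 126 in apoE-/- and from 45.3 to 122.5 in wild-type, with -0.18 ± 0.34 (SE). The third, 1432054_at, was called absent on all 9 arrays. Gcc2, the GRIP golgin GCC185, had 3688.6, 3328.2, 3451.9 and 3030.5 in apoE-/- and 3397.1, 3330.2, 2798.6, 3414.5 and 3165.1 in wild-type by 1429081_at, a log2 difference of 0.08 ± 0.09 (SE). Its other probe set, 1451800_at, was called absent everywhere, at 5.4 to 34.3 in apoE-/- and 7.4 to 32.9 in wild-type.

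Among the cis-Golgi and rim golgins, Golga2 was the only tested probe set that read higher without overlap. Golga2 encodes GM130, which docks vesicles at the cis-Golgi, and its single probe set 1448625_at had a signal of 2442.3, 2462.7, 2406.2 and 2415.4 in apoE-/- and 2141.3, 2357.5, 1859.1, 2033 and 2304 in wild-type. All 4 apoE-/- arrays were above all 5 wild-type arrays, but the difference was small, 0.21 ± 0.09 on the log2 scale (SE), and was not called. Over the array 2.72% of tested probe sets read higher without overlap and 4.17% lower, and of the 15 tested here 1 did so and 3 did so. Golgb1, giantin, which spans the Golgi membrane, had 1721.7, 1482.6, 1423.8 and 1626.9 in apoE-/- and 1971.4, 1770.4, 2161.2, 1651.2 and 1569 in wild-type by 1435032_at, with -0.21 ± 0.11 (SE) and overlap. Its other probe sets 1433135_at (39 to 80.3 in apoE-/-, 51.1 to 80.5 in wild-type) and 1460535_at (6.9 to 77.3 in apoE-/-, 7.7 to 77.4 in wild-type) were called present on 1 and 0 arrays.

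Trip11, or GMAP-210, binds curved membranes at the cis-Golgi and was read by 5 probe sets. The tested ones were 1427407_s_at, at 2553.1 to 3268.7 in apoE-/- and 2377.7 to 3220.6 in wild-type, and 1427406_at, at 684 to 806.7 in apoE-/- and 682.1 to 976.9 in wild-type. Their log2 differences were -0.05 ± 0.10 and -0.12 ± 0.13 (SE). These differed from each other by less than their errors. The untested 1444042_at read 128.2 to 170.2 in apoE-/- and 133.7 to 192.8 in wild-type, and 1447973_at and 1443975_at were called present on no array.

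Pcnt, the pericentrin scaffold of the centrosome, had no tested probe set. Probe set 1433873_s_at read 640.7, 502.1, 541.2 and 441.3 in apoE-/- and 328.2, 420.5, 516.7, 458.3 and 384.3 in wild-type, called present on 1 apoE-/- and 1 wild-type array. Probe set 1454749_at was called absent on all 9 arrays at 293.1, 694.1, 393.4 and 350.1 in apoE-/- and 228.5, 183.3, 160.5, 366.6 and 94.3 in wild-type. Signals of that size were called present in other probe sets described here. The groups overlapped in both.

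Pi4ka, the kinase that supplies PI4P to the plasma membrane, had a signal of 2053.9, 2194.9, 1982.9 and 2256.6 in apoE-/- and 2292.8, 1956.3, 2489, 1815.4 and 2072.8 in wild-type by 1435003_at. The log2 difference was 0.02 ± 0.11 (SE) with overlapping groups. Its second probe set 1457379_at was called absent on all 9 arrays, at 81.8 to 124 in apoE-/- and 64 to 156.6 in wild-type. Over the 14 untested probe sets, 1 read lower without overlap, that of Akap9, and 0 higher, where over all untested probe sets 1.43% read lower and 1.83% higher without overlap.

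**Figure D4:**
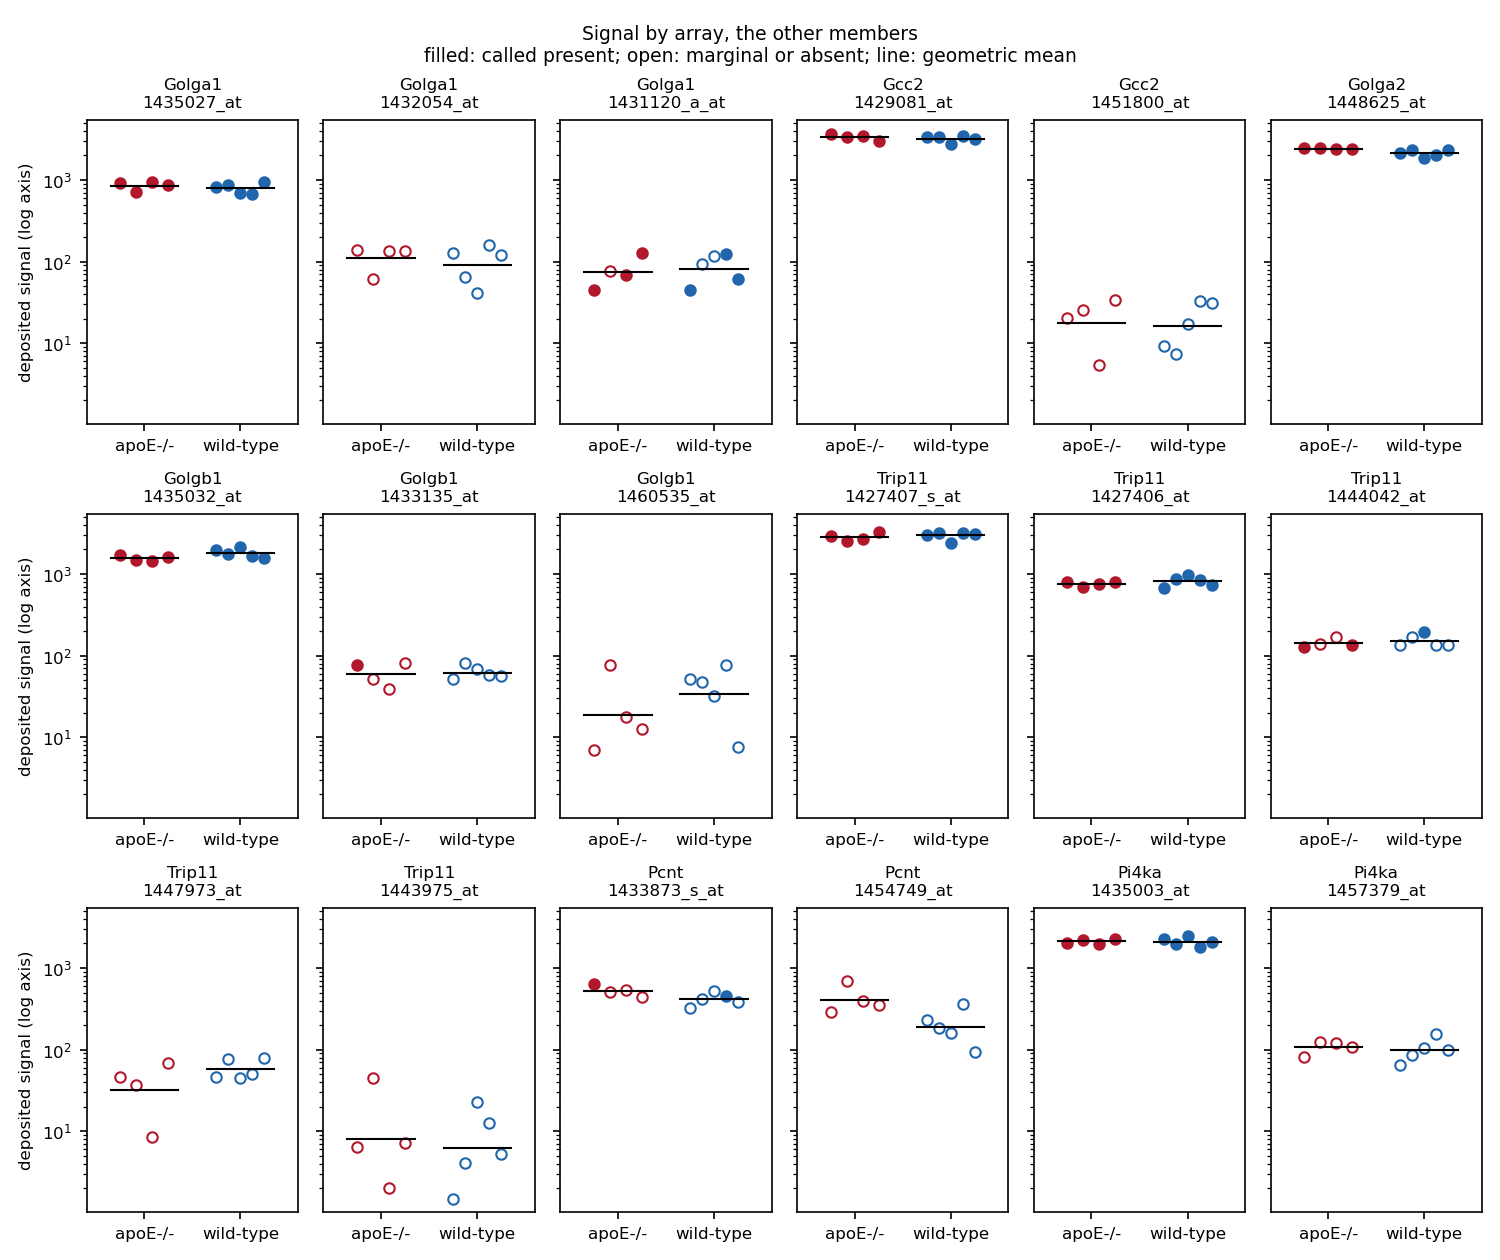
Deposited signal (log axis) of each array for the 18 probe sets of Golga1, Gcc2, Golga2, Golgb1, Trip11, Pcnt and Pi4ka, apoE-/- left (red) and wild-type right (blue), with filled points called present and lines at geometric means. Groups overlap in each panel except Golga2, where all 4 apoE-/- arrays (2406.2 to 2462.7) are above wild-type (1859.1 to 2357.5).

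Genes that work with these proteins were read from 6 lists of 93 entries, each gene by its brightest tested probe set. Of 85 tested genes, 0 were called higher and 0 lower in apoE-/- by limma (adjusted p under 0.05), with 9 at an unadjusted p under 0.05. Over all 11089 genes read in this way 0.794% were called higher and 0.866% lower, and 14.8% had an unadjusted p under 0.05. The median log2 difference was 0.004 over the 85 and 0.017 over all genes. Of all 18374 tested probe sets with 1 symbol, 350 were called lower and 125 higher. The 85 genes had 162 tested probe sets, of which 2 were called lower and 0 higher. The first belongs to Bicd2, an adaptor that links dynein to Rab6 vesicles of the Golgi. Its probe set 1450732_a_at had a signal of 724.8, 616.7, 404.9 and 335.1 in apoE-/- and 1799.3, 1124.3, 1231.3, 1311.1 and 569.2 in wild-type, a log2 difference of -1.20 ± 0.29 (SE, limma, adjusted p = 0.0406), while its other probe sets read -0.29 and -0.05. The groups overlapped at wild-type replicate 5, and the call was lost without any 1 of 7 of the 9 arrays (adjusted p up to 0.140, apoE-/- replicate 3 left out). The exceptions were apoE-/- replicate 1 and wild-type replicate 5. The second belongs to Fam126b, part of the complex that holds Pi4ka at the plasma membrane. Its probe set 1456257_at had 594.5, 459.5, 491.4 and 427.1 in apoE-/- and 602.5, 900.9, 727, 880.2 and 845.2 in wild-type, a log2 difference of -0.69 ± 0.14 (SE, limma, adjusted p = 0.0198), without overlap, while its others read -0.04 and -0.03. That call was lost without apoE-/- replicate 2 (adjusted p = 0.0587) or 3 (0.0624) and without wild-type replicate 2 (0.0554) or 4 (0.0630), with the replicate numbers as a block (0.0682) and without the mean-variance trend (0.0502), and its adjusted p ran from 0.00678 to 0.0682 over all settings.

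Among the other golgins and Golgi tethers, 14 of 16 listed genes were tested, 5 above and 9 below wild-type, with a median log2 difference of -0.05 and a range of -0.16 to 0.19. The smallest p belonged to Golm1 (0.19), Golga3 (0.16), Gorasp1 (-0.16), a stacking protein that binds Golga2, and Tmf1 (-0.12). Their adjusted p was 0.450 to 0.624 by limma. The 8 subunits of the COG complex, a tether for vesicles within the Golgi, had a median of 0.08. Cog5 read 0.50 ± 0.15 (SE, adjusted p = 0.105), Cog8 0.28 (adjusted p = 0.266), Cog6 -0.14 (adjusted p = 0.537) and Cog7 -0.47 ± 0.20 (SE, adjusted p = 0.254). Without apoE-/- replicate 4 Cog7 read -0.68 and passed (adjusted p = 0.0468, with a range of 0.0468 to 0.613 over its settings). Of 13 Golgi GTPases and their exchange factors 7 were above and 6 below wild-type, with a median of 0.01. Rab33b read 0.28 (adjusted p = 0.184) and Rab1b 0.16 (adjusted p = 0.395). Arl1, which recruits Golga1 and Golga4, read 0.14 (adjusted p = 0.305) and Arf1, which recruits Pi4kb, 0.18 (adjusted p = 0.310).

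Genes of PI4P synthesis, turnover and reading gave 21 tested of 22, with 9 above and 12 below wild-type and a median of -0.04. Pi4k2a, a PI4 kinase of the trans-Golgi and endosomes, had a mean signal of 1097 in apoE-/- and 1588 in wild-type, a log2 difference of -0.53 ± 0.14 (SE, limma, adjusted p = 0.0608). It passed without apoE-/- replicate 4 (-0.64, adjusted p = 0.0251), with scaling to the 75th percentile (adjusted p = 0.0398) and with array weights (adjusted p = 0.0313), in a range of 0.0251 to 0.207 over its settings. The phosphatidylinositol transfer protein Pitpnb read -0.35 (adjusted p = 0.105) and Pitpna 0.15 (adjusted p = 0.416). Cert1, the ceramide carrier that binds PI4P, read 0.26 (adjusted p = 0.216), although its probe set of smallest p read -0.61 (adjusted p = 0.0879). Of 20 centrosomal genes 15 were tested, 7 above and 8 below, with a median of -0.05. The Akap9 partner Pde4dip, or myomegalin, read -0.30 (adjusted p = 0.198), Crocc -0.25 (adjusted p = 0.410), Nin 0.25 (adjusted p = 0.373) and Tubgcp4 -0.20 (adjusted p = 0.404). Of the 14 other A-kinase anchors and protein kinase A subunits 9 were above and 5 below, with a median of 0.07. The regulatory subunit Prkar2a read -0.31 (adjusted p = 0.167), Akap7 0.25 (adjusted p = 0.416), Akap11 0.21 (adjusted p = 0.389) and Akap1 0.16 (adjusted p = 0.514).

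**Figure D5:**
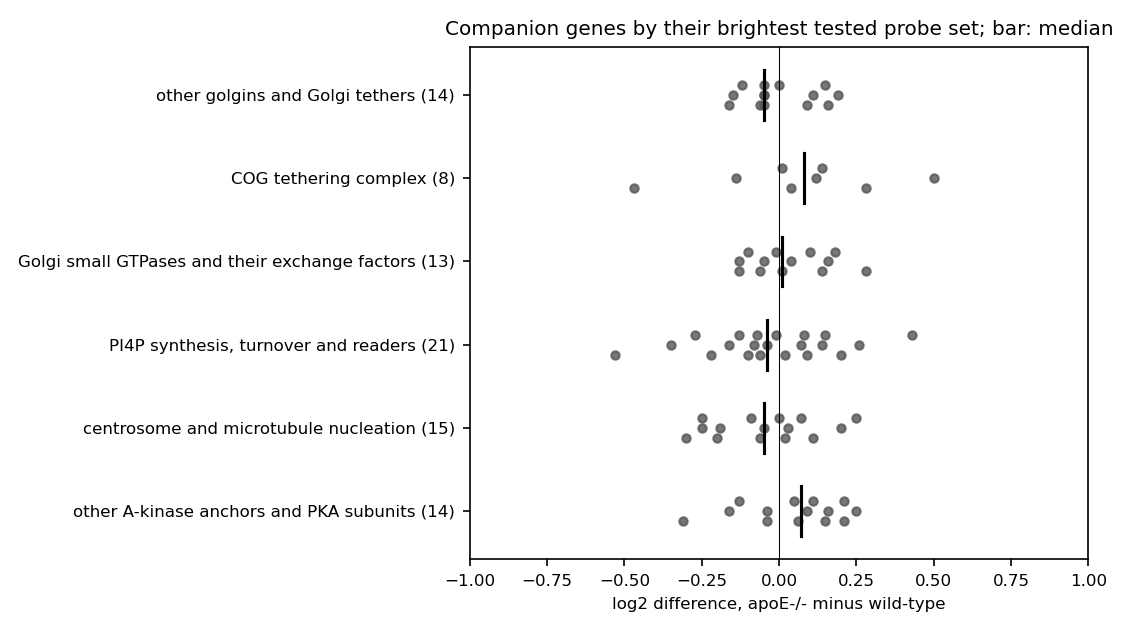
Log2 difference (apoE-/- minus wild-type) of each tested gene of the 6 lists by its brightest probe set, with the number of genes beside each list name and a bar at the list's median. All points lie between -0.53 and 0.50, and the medians between -0.05 and 0.08.

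The probe sets most like the 3 called ones over the 9 arrays were found by Pearson's r of the normalised log2 values. The arrays are the points, so each r includes the difference between genotypes that chose the genes, and it is given beside the r within groups as a description. Golga4 1448803_at was most like Crim1 (r = 0.980, within groups 0.811), Naa15 (0.976, 0.736) and Eprs (0.972, 0.843). Among the probe sets most like Akap9 1455151_at were those of Rflnb (r = 0.984, within groups 0.954) and the formin Diaph2 (0.984, 0.952). The spread of Akap9 1455151_at within groups was mostly in apoE-/- (SD 1.46 in log2, against 0.25 in wild-type). There replicates 3 and 4 lay far below 1 and 2, so its r within groups rests largely on these arrays. Pi4kb 1439197_at was most like Naa15 (r = 0.966, within groups 0.641), the circadian factor Clock (0.962, 0.828) and the splicing factor kinase Srpk2 (0.961, 0.748). These probe sets read log2 differences of -0.75 to -1.19 themselves. Within groups the 3 called probe sets had an r of 0.655 for Golga4 and Akap9, 0.388 for Pi4kb and Golga4 and -0.00257 for Pi4kb and Akap9.

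None of the 10 genes lies on the chromosome that holds Apoe, and none is the direct neighbour of another in the reference gene table.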

How the data were processed

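The authors deposited linear signal intensities of 9 arrays, with a call of each probe set as present, marginal or absent, made with GCOS 1.4 per the submitters' processing notes. How background and probes were combined is not stated in them. The deposited intensities had been scaled to a mean of 500 per array after trimming 2% at each end. The series matrix repeats these intensities (405909 of 405909 values equal), and 9 columns of detection p were not used.

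Intensities were taken to log2 and quantile normalized, since array medians ranged over 0.214. The 64 controls and probe sets called present on fewer than 4 of 9 arrays were left out. Genotypes were compared over the remaining 21478 probe sets with limma 3.58.1 in R 4.3.3 (mean-variance trend, two-sided) and Benjamini-Hochberg adjustment at 0.05. Names came from the platform annotation, where 34958 probe sets had 1 symbol, and from a gene table of assembly GRCm38.p6, which 34754 of them matched. Genes and lists were chosen with earlier results of these data known. Named were all members, up to 4 genes per list with the smallest p, the companion probe sets called (chosen after their values were seen), Apoe, and the 3 probe sets most like each called one, of which 1 is not reported here. The procedure was tested on simulated data. Alternatives were other scalings, filters, an offset, variance priors, array weights, a replicate block and each array left out. The number of arrays limits the precision.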

Additional observations from a re-analysis of the deposited data

Results flagged for a closer look

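In 6 of 110 checks, 1 per probe set and group over 55 probe sets, a single array lay far from the rest of its group, where chance alone gives about 1 group in 20. Golga1 1432054_at read 62.2 in apoE-/- replicate 2, against 134.6 to 138.2 in the other apoE-/- arrays. Pi4ka 1457379_at read 81.8 in apoE-/- replicate 1, against 107.5 or more in the others. Akap9 1447912_x_at read 132.1 in wild-type replicate 1, against at most 24.5 in the others. These 3 probe sets were called absent on all 9 arrays. Trip11 1427407_s_at read 2377.7 in wild-type replicate 3, against 2993.3 or more in the others. Arl1 1447090_s_at read 6985.9 in apoE-/- replicate 4 and Akap7 1433905_at read 832.2 in apoE-/- replicate 3, each the highest of its group after normalization.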

How the results depend on the processing

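Of 280 values of the 15 tested member probe sets under 10 other settings and with each array left out, 275 stayed on their side of the threshold, no called value changed sign, and 5 lost the call, all of Akap9 1455151_at. Besides the 3 arrays named in the results, that call was lost without a filter on detection calls and without the mean-variance trend (log2 difference -2.51 in both). The member probe sets called lower numbered 0 when all 9 arrays had to be present, since the filter removes all 3, and 2 to 3 with an array left out. Over all probe sets, 81 were higher and 248 lower without the filter, 57 and 252 without the trend, and 372 and 706 with array weights. With an array left out they numbered 56 to 236 higher and 207 to 525 lower. The higher count moved by over 1.5 times without apoE-/- replicates 1 to 4 (89, 65, 56 and 236) or wild-type replicates 2 and 4 (89 and 72), and the lower count without apoE-/- replicate 3 (207) or wild-type replicate 4 (213). Companion genes called lower numbered 1 with scaling to the 75th percentile, 2 with array weights, 2 with the probe set of smallest p, and 0 to 2 with an array left out. Pde4dip passed with array weights (-0.37, adjusted p = 0.0487, range 0.0487 to 0.472), and Cert1 reversed to -0.61 by its probe set of smallest p. Bicd2 1450732_a_at lost its call without the filter, without the trend and with a robust prior (adjusted p = 0.103, 0.114 and 0.0886). Same-numbered arrays correlated at -0.015 to 0.16 after group means were removed, and 2 of 4 apoE-/- arrays matched their own number best. So few values show no clear pairing by replicate number and cannot exclude one. With the replicate block 176 were higher and 421 lower, with 3 members lower. Except for Fam126b 1456257_at the block changed no call of a named probe set. Gaps between probe sets kept their sign for Golga4, Akap9 and Pi4kb in all 3 other scalings or offsets and with each array left out, of which scaling to the 75th percentile and the left-out arrays were chosen after seeing the data. Dim probe sets are read near background, where signals carry the largest relative spread.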
